A study of Mus musculus with 15 samples.

Results

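The genes described here are 37 genes of glycolysis and of the transcriptional response to low oxygen, read out in mouse embryonic stem cells (mESCs) in which 1 or both STAG subunits of cohesin had been deleted or depleted. They were chosen by symbol and all 37 were found among the 23412 genes counted. By role they comprise 3 transporters of glucose or lactate, 3 hexokinases, 7 genes of upper glycolysis, 7 of lower glycolysis, 3 that act on pyruvate or lactate, 2 that set the level of fructose-2,6-bisphosphate and 12 hypoxia response genes. A low-count filter left 36 of them for testing, because *Eno1* had 0 to 5 counts in every library.

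The libraries were made from polyA RNA of v6.5 mESCs, a mouse ES cell line, grown in 5 conditions with 3 replicates each. Wild-type siGLO cells were the control, siGLO being an siRNA that targets no gene. *Stag1*-/- siGLO and *Stag2*-/- siGLO cells carried a CRISPR deletion and the same control siRNA, and in wild-type siStag1 and *Stag2*-/- siStag1 cells an siRNA pool against *Stag1* was used instead. All cells therefore received an siRNA, at 50 nM, and were harvested after 48 h. Each knockout genotype was 1 clone grown as 3 replicates, so an effect of the genotype and an effect of the clone cannot be told apart, and the p-values measure the spread between replicates of that clone.

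Glycolysis converts glucose to pyruvate in the cytosol, and several of its steps are run by isozymes from different genes whose proportions differ between tissues. When oxygen is low, the HIF transcription factors escape the prolyl hydroxylases of the EGLN family and bind a short DNA motif, of which ACGTG is a common core. They raise transcription of most glycolytic genes together with genes for collagen modification, mitophagy, pH control and vessel growth. Pluripotent stem cells are known for a high rate of glycolysis.

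Between 14982560 and 19070126 counts per library fell on genes, with a median of 17700059. *Stag2* fell by 1.75 on the log2 scale in *Stag2*-/- cells (SE 0.12, edgeR adjusted p = 4.34e-07). *Stag1* fell by 2.28 with siStag1 in wild-type cells (SE 0.14, edgeR adjusted p = 2.58e-07) and by 1.53 in *Stag2*-/- cells (SE 0.14, edgeR adjusted p = 6.68e-06). The *Stag1* count did not differ between *Stag1*-/- and wild-type cells by the test (log2 fold change -0.09, SE 0.13, edgeR adjusted p = 0.728), and since a gene count need not fall when part of a gene is deleted, it does not check that clone. The paper describes an in-frame deletion in the clone used, with a normal *Stag1* transcript level and no STAG1 protein detected by western blot. The 10 markers of pluripotent stem cells were detected in every library, with at least 596 counts each. Among 8 fibroblast markers, *Postn*, *Dcn* and *Lum* were at 0 in 8, 10 and 12 of the 15 libraries, while *Col1a1* (76 to 328 counts), *Col1a2* (51 to 148), *Thy1* (76 to 158), *Pdgfra* (30 to 631) and *Col3a1* (1 to 91) had counts in every library. The 8 markers of primitive endoderm, the extraembryonic lineage that can arise in ESC cultures, were all lower in *Stag1*-/- cells and all lower in *Stag2*-/- cells, as described beside the results below.

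Transcript levels were compared between genes as normalised read counts per kb of exon. The length was that of the merged exons of all annotated transcripts of a gene, which can exceed that of the transcript expressed. Ranks between genes and isozyme shares therefore depend on the annotation. In wild-type siGLO cells the highest level was that of *Pkm*, pyruvate kinase, at 16322 ± 739 per kb (SD, n = 3). *Gapdh* followed at 15059 ± 598 and the aldolase gene *Aldoa* at 13735 ± 1909, and the libraries of these 3 genes overlapped. *Ldha*, lactate dehydrogenase A, had 9597 ± 776 per kb and *Pgk1*, phosphoglycerate kinase, 8305 ± 1272, again with overlap. The glucose transporter gene *Slc2a3* had 4636 ± 735 and its relative *Slc2a1* 3950 ± 760. Within each wild-type siGLO library *Slc2a3* was the higher, at 53.3% to 55.1% of their summed level. Most hypoxia response genes were far lower. The highest of them were *Ddit4* at 2010 ± 1086 per kb and *Bnip3* at 1362 ± 394, and the lowest was *Car9* at 16.1 ± 6.68. At the bottom of the glycolytic genes stood *Eno2*, the neuronal enolase, at 26.8 ± 12.6 per kb and *Hkdc1*, a hexokinase-related gene, at 38.2 ± 5.30. The lowest tested member was *Pfkfb4*, an enzyme that sets fructose-2,6-bisphosphate, at 12.6 ± 1.34.

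*Eno1*, the gene of the ubiquitous enolase, was listed at 0 to 5 counts per library, although enolase is needed for glycolysis and the genes of the steps before and after it had high counts. Of the 150-base stretches in its annotated transcripts, 16.5% also occurred in transcripts of other genes. Whether the way reads were assigned to genes set the listed count was not tested, and no statement on its expression is made.

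The members called in *Stag2*-/- cells were all lower. Of 36 tested members, 12 fell, none rose and 24 were not called, beside 14.4% of all tested genes called lower and 28.3% called in either direction. The log2 fold change was below 0 for 31 members and above 0 for 5. The median log2 fold change of the 36 was -0.31, beside 0.01 over all 14508 genes tested. It was -0.13 without wild-type siGLO replicate 3 and -0.45 without wild-type siGLO replicate 1. In *Stag1*-/- cells 7 members were called, 3 higher and 4 lower, where 20.0% of all genes were called, 10.1% higher and 9.93% lower, and the members' median log2 fold change was 0.01 beside -0.01 over all genes. That median had no stable sign, being 0.14 without wild-type siGLO replicate 3 and -0.12 without wild-type siGLO replicate 1. When the replicate number was added to the fit as a block, 13 members were called in *Stag1*-/- cells, 7 higher and 6 lower, with 30.6% of all genes called. The 6 gained were *Ldhb*, *Slc16a3* and *Pfkl*, given with their genes, *Gpi1* (block log2 fold change 0.23, edgeR adjusted p = 0.0664), *Pfkp* (-0.30, edgeR adjusted p = 0.0821) and *Eno2* (-0.73, edgeR adjusted p = 0.0773). *Stag2*-/- siStag1 cells, which lack STAG2 and keep part of the *Stag1* transcript (667, 781 and 629 normalised read counts, against 1875, 2204 and 1936 in *Stag2*-/- siGLO), had 16 members lower and 1 higher than wild-type siGLO, with 43.9% of all genes called and 21.3% called lower. The members' median log2 fold change there was -0.39, beside 0.01 over all genes, and -0.16 without wild-type siGLO replicate 3. The replicate block gave 23 members, 4 higher and 19 lower, with 53.7% of all genes called. All of these comparisons use the same wild-type siGLO libraries. The libraries of the groups did not overlap for 8 members in *Stag1*-/- (31.7% of all genes), 14 in *Stag2*-/- (35.7%), 16 in *Stag2*-/- siStag1 (47.3%) and 2 in wild-type siStag1 (15.5%), each against wild-type siGLO.

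**Figure D1:**
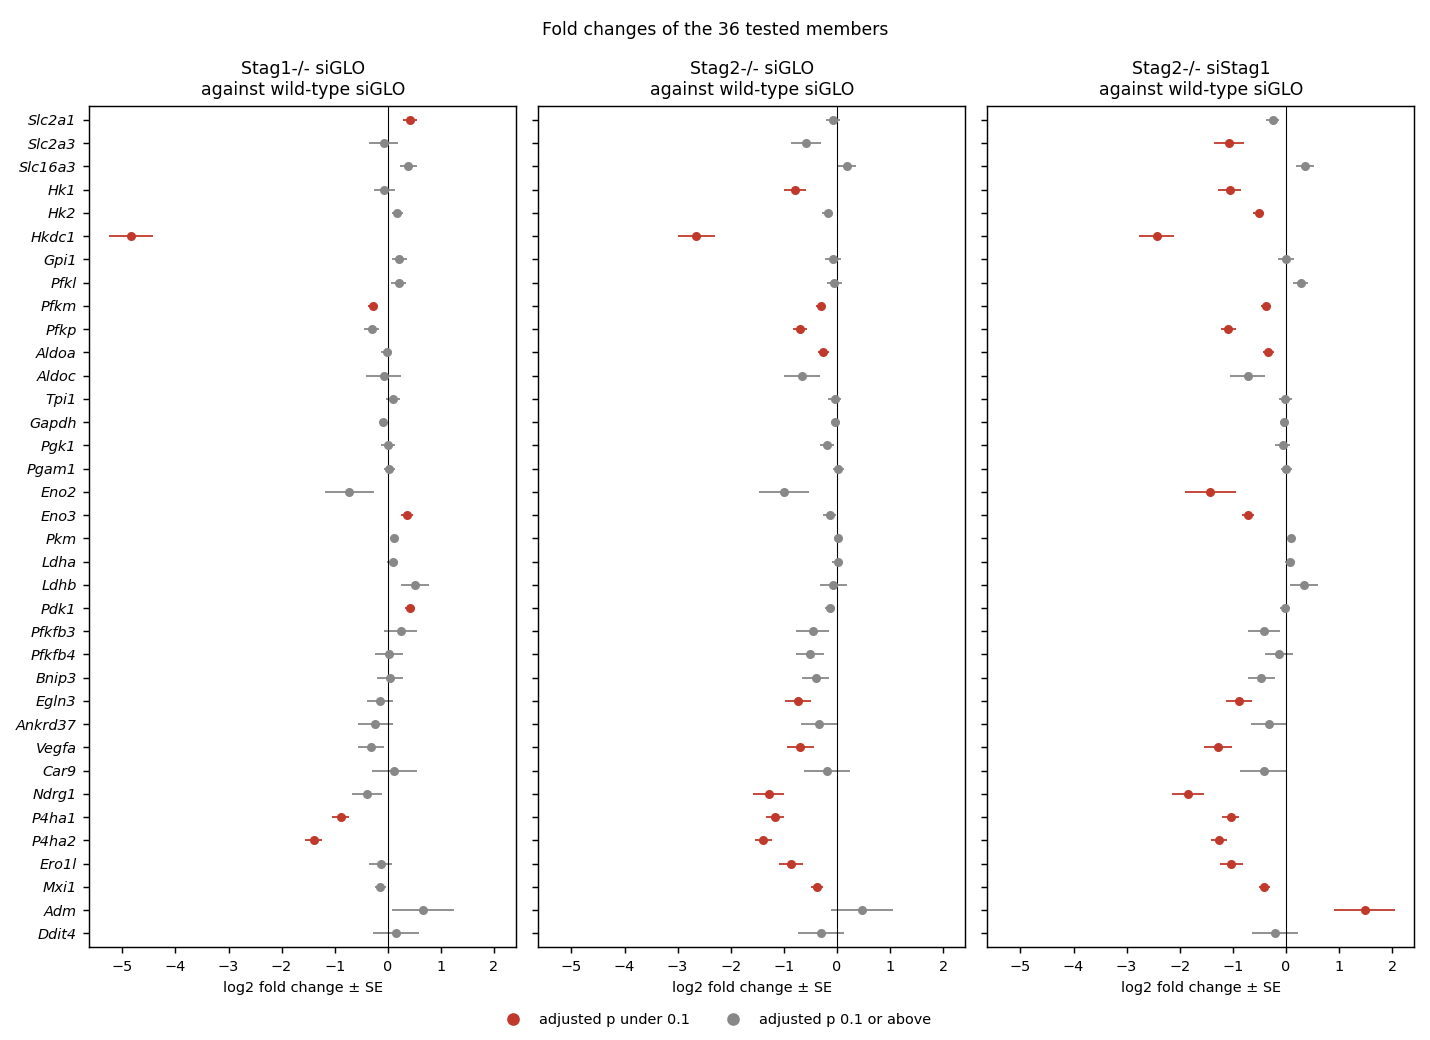
Log2 fold change (x axis, ± SE from edgeR) of the 36 tested genes (rows, ordered by role) against wild-type siGLO in 3 panels, for *Stag1*-/- siGLO, for *Stag2*-/- siGLO and for *Stag2*-/- siStag1, with 3 libraries per group, with red points for an adjusted p under 0.1. The 12 red points of the *Stag2*-/- panel all lie below 0, the *Stag1*-/- panel has 3 above and 4 below, and *Hkdc1*, *P4ha1* and *P4ha2* are below 0 in all 3 panels.

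Acute depletion of STAG1 in wild-type cells called no member by edgeR, where 0.248% of all genes were called. At an unadjusted p under 0.05 there was 1 member, *Pdk1*, and DESeq2 called 0. *Pdk1* had 6206, 6597 and 6199 normalised read counts in wild-type siStag1 and 5262, 5064 and 5170 in wild-type siGLO, without overlap (log2 fold change 0.29, SE 0.09, edgeR adjusted p = 0.439). With the replicate block it was called (edgeR adjusted p = 0.0936), with 1.63% of all genes. The log2 fold changes of all 36 members in this comparison ran from -0.37 to 0.64.

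The hexokinases, which trap glucose in the cell by phosphorylation, differed in their response. *Hkdc1* lies on chromosome 10 at mm10 positions 62383137 to 62422491, and 3228 bases lie between it and its neighbour *Hk1* on the same strand. *Hkdc1* had normalised read counts of 168, 223 and 197 in wild-type siGLO. In *Stag1*-/- cells they were 11.8, 7.79 and 0.904, from 12, 8 and 1 raw counts. *Stag2*-/- cells had 48.7, 25.9 and 19. The knockout libraries of both genotypes all lay below every wild-type library, and *Stag1*-/- lay below *Stag2*-/- without overlap. *Hkdc1* fell by 4.84 on the log2 scale in *Stag1*-/- cells (SE 0.42, edgeR adjusted p = 1.43e-06) and had a log2 fold change of -2.65 in *Stag2*-/- cells (SE 0.34, edgeR adjusted p = 7.41e-05). The direct comparison of *Stag1*-/- with *Stag2*-/- gave -2.20 (SE 0.46, edgeR adjusted p = 0.00390). With siStag1 in wild-type cells its counts were 186.5, 187.6 and 207, inside the control range.

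*Hk1*, the housekeeping hexokinase, had 1530, 2166 and 2910 normalised read counts in wild-type siGLO and 1094, 1213 and 1516 in *Stag2*-/- siGLO. The groups did not overlap and *Hk1* fell by 0.79 (SE 0.21, edgeR adjusted p = 0.0144). In *Stag1*-/- cells it had 2006, 2347 and 1963, inside the wild-type range. *Hk1* and *Hkdc1* thus gave different values in the *Stag1*-/- clone, -0.06 for *Hk1* against -4.84 for *Hkdc1*, and the genes are adjacent. *Hk2*, the inducible isozyme and by far the main hexokinase transcript, had 7966, 9372 and 7819 in *Stag2*-/- siGLO against 7345, 6458 and 6001 in *Stag2*-/- siStag1. It fell by 0.35 with siStag1 in these cells (SE 0.10, edgeR adjusted p = 0.0771), a call lost when *Stag2*-/- siGLO replicate 2 or *Stag2*-/- siStag1 replicate 2 or 3 was left out (highest adjusted p 0.312). Per kb of exon, *Hkdc1* made up 2.04% ± 0.23 of the hexokinase transcripts in wild-type siGLO, 0.0651% ± 0.0552 in *Stag1*-/- and 0.395% ± 0.217 in *Stag2*-/- cells, while *Hk2* made up 84.4% ± 2.64, 87.8% ± 0.15 and 89.97% ± 1.89 (SD, n = 3 each).

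**Figure D2:**
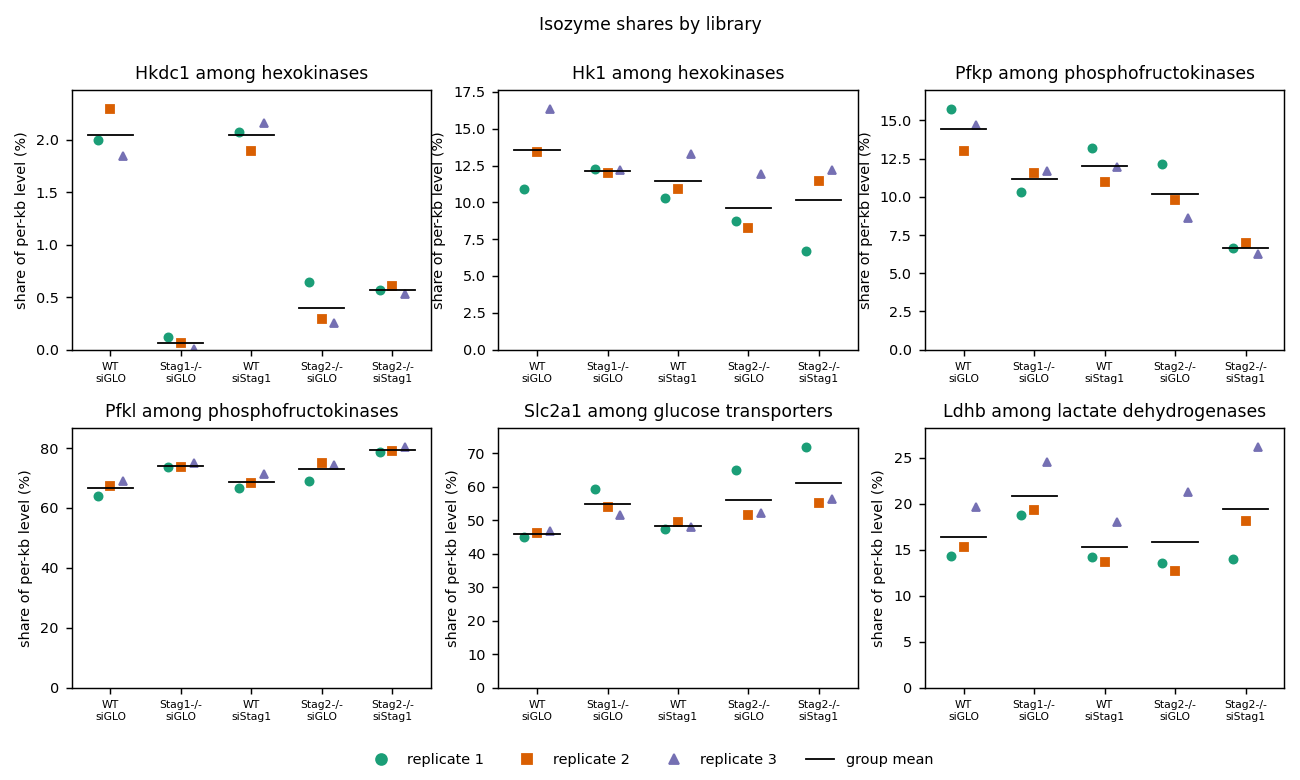
Shares of *Hkdc1*, *Hk1*, *Pfkp*, *Pfkl*, *Slc2a1* and *Ldhb* in the per-kb level of their isozyme families (y axis, %) in the 15 libraries by condition. Points are marked by replicate number, with a line at the mean of 3. *Hkdc1* makes up 1.84% or more of the hexokinases in the wild-type groups and 0.644% or less in the *Stag1*-/- and *Stag2*-/- groups, and the *Pfkp* share is lowest in *Stag2*-/- siStag1 at 6.27% to 7.01%.

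Phosphofructokinase catalyses the main rate-controlling step of glycolysis and has a liver (*Pfkl*), a muscle (*Pfkm*) and a platelet (*Pfkp*) isozyme. *Pfkp* had 3913, 3607 and 5167 normalised read counts in wild-type siGLO, 2858, 2564 and 2418 in *Stag2*-/- siGLO and 1793, 2283 and 1901 in *Stag2*-/- siStag1. Neither of the latter groups overlapped wild type. *Pfkp* fell by 0.69 in *Stag2*-/- cells (SE 0.14, edgeR adjusted p = 0.00216) and by 1.09 in *Stag2*-/- siStag1 (SE 0.14, edgeR adjusted p = 1.74e-05). With siStag1 in *Stag2*-/- cells the log2 fold change was -0.39 (edgeR adjusted p = 0.137, and 0.0548 with the replicate block). Part of *Pfkp* overlaps *Pitrm1* on the other strand, and 4.26% of its 150-base stretches are shared, so reads of these genes may be mixed. *Pitrm1* had log2 fold changes of 0.10 and 0.05 in *Stag2*-/- siGLO and *Stag2*-/- siStag1 against wild-type siGLO (edgeR adjusted p = 0.319 and 0.585). It was called higher in *Stag1*-/- against wild-type siGLO (0.33, edgeR adjusted p = 0.00273) and higher in *Stag1*-/- than in *Stag2*-/- (0.23, edgeR adjusted p = 0.0206), where *Pfkp* was also called higher. The part of mixed reads in that *Pfkp* call was not tested.

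*Pfkm* had 1248, 1373 and 1436 normalised read counts in wild-type siGLO, 1174, 1138 and 1029 in *Stag1*-/- and 1101, 993.5 and 1179 in *Stag2*-/- cells. Both knockouts lay below wild type without overlap. It fell by 0.28 in *Stag1*-/- (SE 0.09, edgeR adjusted p = 0.0508) and by 0.31 in *Stag2*-/- cells (SE 0.09, edgeR adjusted p = 0.0257). The first call was lost without wild-type siGLO replicate 2 or 3 or *Stag1*-/- replicate 3 (highest adjusted p 0.159), and the second without *Stag2*-/- replicate 2 (adjusted p 0.115). *Pfkl*, the main isozyme, had log2 fold changes of 0.20 in *Stag1*-/- (edgeR adjusted p = 0.384, and 0.0635 with the replicate block) and -0.05 in *Stag2*-/- cells (not called with or without the block), and its share of the 3 isozymes per kb was 66.8% ± 2.44 in wild-type siGLO, 74.1% ± 0.84 in *Stag1*-/-, 72.9% ± 3.23 in *Stag2*-/- and 79.4% ± 0.82 in *Stag2*-/- siStag1 (SD, n = 3 each).

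Among the other glycolytic enzymes few calls were made. *Aldoa* had 35878, 37762 and 46307 normalised read counts in wild-type siGLO and 30849, 35229 and 34162 in *Stag2*-/- siGLO. It fell by 0.26 there (SE 0.10, edgeR adjusted p = 0.0818), but the call held in only 1 of 6 fits that left out a library, the one without wild-type siGLO replicate 1 (highest adjusted p 0.370). *Eno3*, the muscle enolase, had 738, 741 and 599 in wild-type siGLO, 886, 910 and 861 in *Stag1*-/- and 371, 452.5 and 442 in *Stag2*-/- siStag1. It rose by 0.35 in *Stag1*-/- cells (SE 0.11, edgeR adjusted p = 0.0479, a call lost without wild-type siGLO replicate 3 or *Stag1*-/- replicate 1 or 2, highest adjusted p 0.183). It fell by 0.58 with siStag1 in *Stag2*-/- cells (SE 0.12, edgeR adjusted p = 0.00973), and all 3 same-numbered pairs had that sign. *Eno2* fell by 1.42 in *Stag2*-/- siStag1 (SE 0.48, edgeR adjusted p = 0.0302), from 72, 116 and 190 to 12.8, 69.7 and 58.65, a call lost without wild-type siGLO replicate 3 (adjusted p 0.157).

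*Gapdh*, *Tpi1*, *Pgam1*, *Pgk1*, *Pkm* and *Ldha*, which encode core enzymes from triose phosphate to lactate, were called in none of the 6 comparisons between conditions. *Gapdh* ranged from 53330 to 65309 normalised read counts over all 15 libraries. Of the 150-base stretches of *Pgk1*, *Pgam1* and *Gapdh*, 49.4%, 32.2% and 18.1% also occur in transcripts of other genes, so their counts are less certain. Summed over 19 enzymes from hexokinase to lactate dehydrogenase, the counts were 1.71% ± 0.19 of all gene counts in wild-type siGLO, 1.75% ± 0.08 in *Stag1*-/-, 1.62% ± 0.11 in *Stag2*-/-, 1.78% ± 0.16 in wild-type siStag1 and 1.69% ± 0.13 in *Stag2*-/- siStag1 (SD, n = 3 each). The 19 include *Eno1* at its very low listed counts, so the sums hold almost no counts of the ubiquitous enolase. As shares of gene counts these sums overlapped between all conditions. As normalised read counts those of *Stag1*-/- (302874 or more) and *Stag2*-/- siGLO (up to 295992) did not overlap. By same-numbered pairs, the sum was higher in *Stag1*-/- than in *Stag2*-/- siGLO and higher in wild-type siStag1 than in wild-type siGLO in 3 of 3 pairs, and these sums were not tested.

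Glucose enters the cell through *Slc2a1* (GLUT1) and *Slc2a3* (GLUT3). *Slc2a1* had 11474, 13340 and 16728 normalised read counts in wild-type siGLO and 17901, 18901 and 18730 in *Stag1*-/- siGLO, without overlap. It rose by 0.42 (SE 0.13, edgeR adjusted p = 0.0420), a call lost without wild-type siGLO replicate 1 or 2 (highest adjusted p 0.175). In *Stag2*-/- siGLO it had 11077, 14319 and 14206, and the difference between *Stag1*-/- and *Stag2*-/- was 0.49 (SE 0.13, edgeR adjusted p = 0.0166). *Slc2a3* had 29100, 32197 and 39474 in wild-type siGLO, 12367, 27926 and 27054 in *Stag2*-/- siGLO and 9275, 19070 and 19492 in *Stag2*-/- siStag1. Replicate 1 was the lowest of its group in each case. In *Stag2*-/- siGLO the log2 fold change was -0.58 (SE 0.28, edgeR adjusted p = 0.152, and 0.00486 with the replicate block), and in *Stag2*-/- siStag1 *Slc2a3* fell by 1.07 (SE 0.28, edgeR adjusted p = 0.00689). The lactate exporter gene *Slc16a3* had 2670, 3413 and 4290 in wild-type siGLO and 4436, 4644 and 4475 in *Stag1*-/-, with a log2 fold change of 0.39 (edgeR adjusted p = 0.140, and 0.0218 with the replicate block).

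*Pdk1*, the kinase that keeps pyruvate out of the citric acid cycle by inhibiting pyruvate dehydrogenase, had 6955, 6938 and 6743 normalised read counts in *Stag1*-/- cells, all above the wild-type siGLO values given above. *Pdk1* rose by 0.41 in *Stag1*-/- cells (SE 0.09, edgeR adjusted p = 0.00775), and no left-out library ended that call. In *Stag2*-/- siGLO it had 5488, 4368 and 4358, and it was higher in *Stag1*-/- than in *Stag2*-/- by 0.54 (SE 0.09, edgeR adjusted p = 0.00104). *Ldhb*, the lactate dehydrogenase subunit that favours pyruvate formation, had 2363, 2634 and 4008 in wild-type siGLO and 3555, 3875 and 5401 in *Stag1*-/-. Each *Stag1*-/- library was above the wild-type library of the same number, by 0.59, 0.56 and 0.43 on the log2 scale. The groups overlapped, and the gene was called only with the replicate block (log2 fold change 0.51, edgeR adjusted p = 0.221 without the block and 0.000184 with it).

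**Figure D3:**
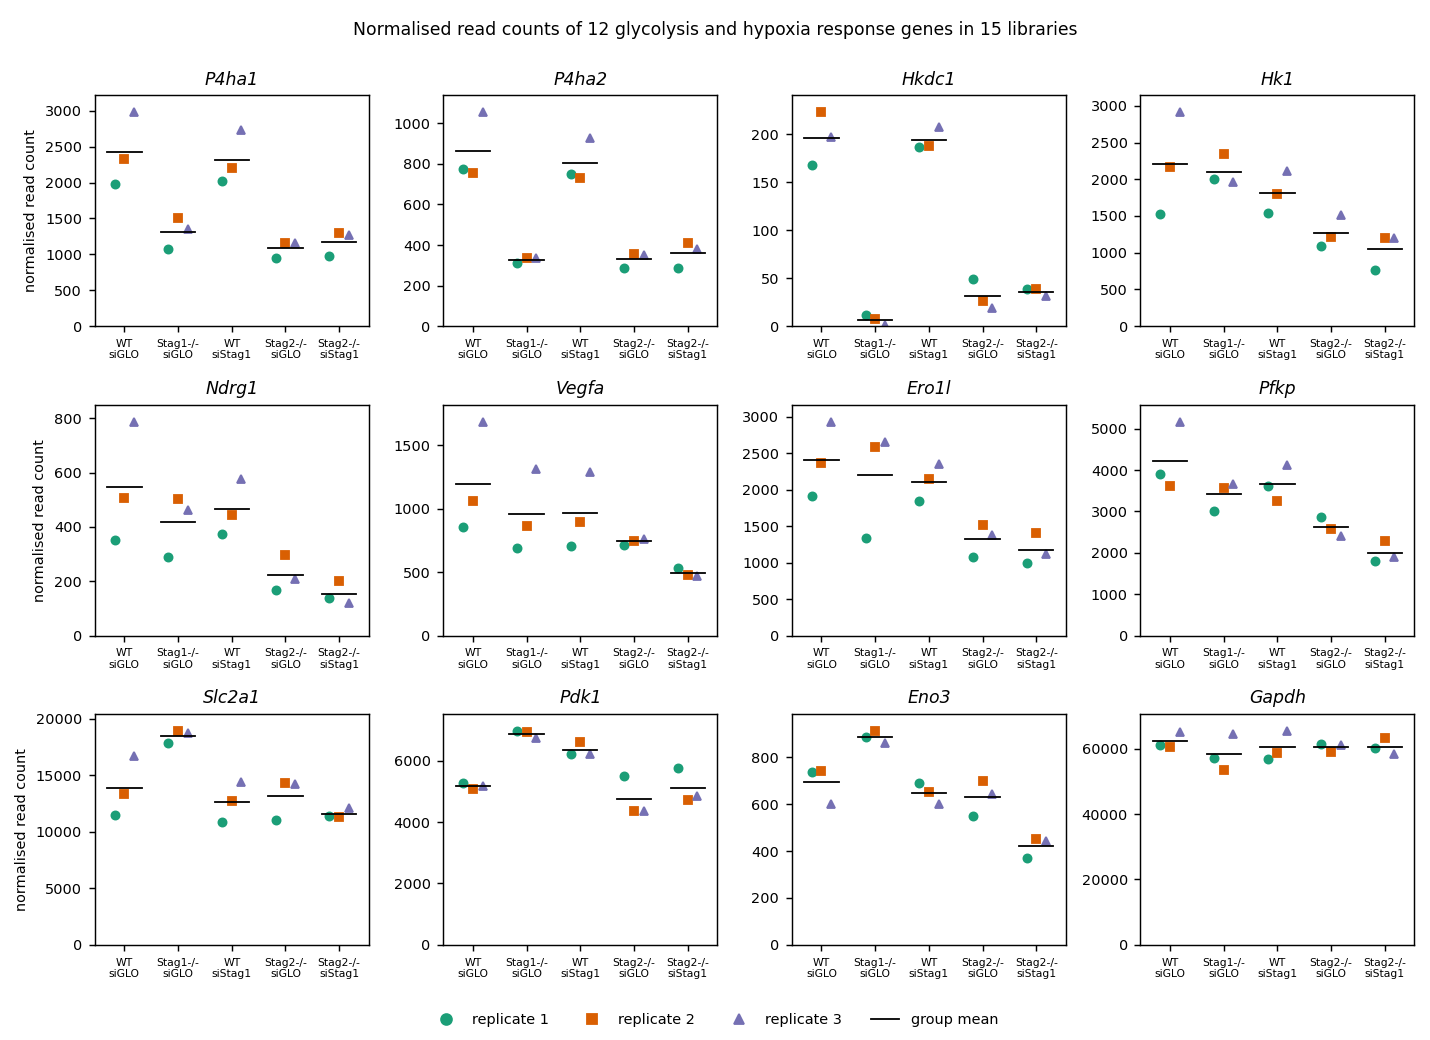
Normalised read counts (y axis, linear from 0) of 12 members in the 15 libraries by condition, with points marked by replicate number and a line at the mean of 3. *P4ha1*, *P4ha2* and *Hkdc1* are lower in every *Stag1*-/- and *Stag2*-/- library than in every wild-type library, *Pdk1* is highest in *Stag1*-/- siGLO, and *Gapdh* stays between 53330 and 65309.

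Of the 12 hypoxia response genes, 2 fell in *Stag1*-/- cells and 7 fell in *Stag2*-/- cells, and none rose, where 9.93% and 14.4% of all genes were called lower. The *Stag1*-/- count is close to that background. *P4ha1* and *P4ha2* encode the catalytic subunits of collagen prolyl 4-hydroxylase, which stabilises the collagen triple helix. *P4ha1* (mm10 chr10:59323296-59373304) had 1975, 2329 and 2978 normalised read counts in wild-type siGLO. It had 1080, 1501 and 1356 in *Stag1*-/-, 945, 1152 and 1154 in *Stag2*-/- siGLO and 971, 1293 and 1270 in *Stag2*-/- siStag1. All knockout libraries lay below all wild-type libraries. *P4ha1* fell by 0.89 in *Stag1*-/- (SE 0.16, edgeR adjusted p = 0.00171) and by 1.16 in *Stag2*-/- cells (SE 0.17, edgeR adjusted p = 0.000167). *P4ha2* (mm10 chr11:54100095-54131665) had 777, 755 and 1054 in wild-type siGLO, 310, 336 and 336 in *Stag1*-/- and 285, 356 and 348 in *Stag2*-/- siGLO. It fell by 1.40 in *Stag1*-/- (SE 0.16, edgeR adjusted p = 2.21e-05) and by 1.39 in *Stag2*-/- cells (SE 0.16, edgeR adjusted p = 2.49e-05). With siStag1 in wild-type cells *P4ha1* had 2026, 2199 and 2734 and *P4ha2* 748, 730 and 929. These overlapped the control values, and neither gene was called.

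The primitive endoderm markers moved with these genes. All 8 tested markers (*Gata4*, *Gata6*, *Sox17*, *Sox7*, *Foxa2*, *Pdgfra*, *Dab2* and *Lama1*) were called lower in *Stag1*-/- cells, with a median log2 fold change of -3.44, and all 8 in *Stag2*-/- cells, with a median of -2.31. None of them was at 0 in any library. Their summed counts were 0.109% to 0.110% of the gene counts in wild-type siGLO and 0.0949% to 0.103% in wild-type siStag1. They were 0.0229% to 0.0276% in *Stag1*-/-, 0.0185% to 0.0301% in *Stag2*-/- siGLO and 0.0167% to 0.0259% in *Stag2*-/- siStag1. In bulk libraries fewer cells of a type and less RNA per cell cannot be told apart. The part of these markers in the lower counts of *P4ha1*, *P4ha2*, *Hkdc1* and other members was not tested.

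**Figure D4:**
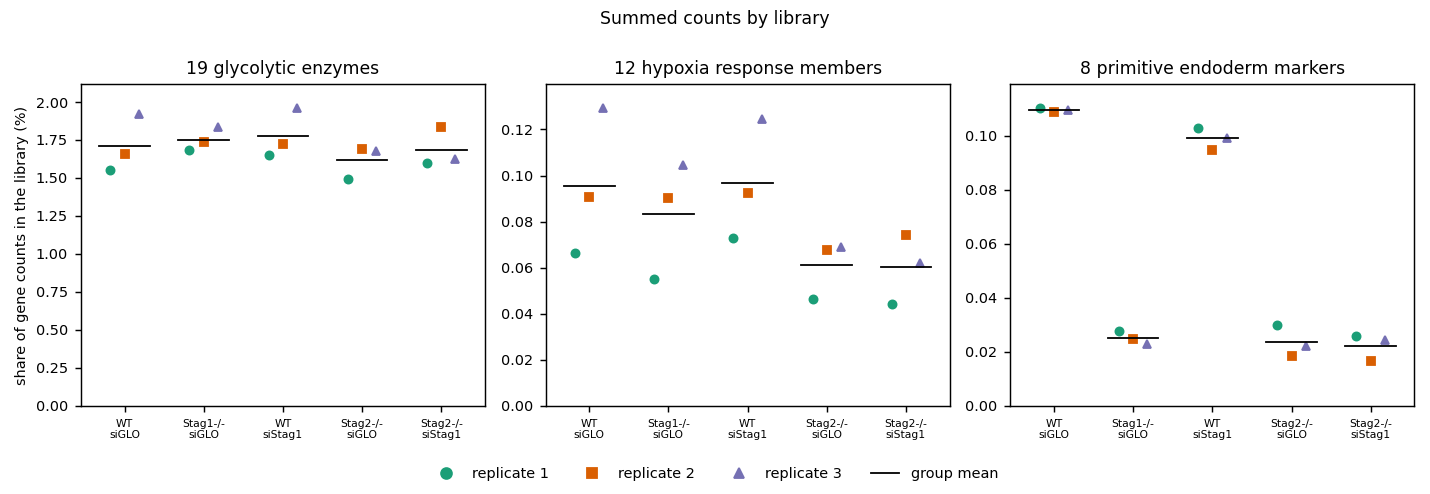
Share of gene counts (y axis, %) summed over 19 glycolytic enzymes, 12 hypoxia response members and 8 primitive endoderm markers in the 15 libraries by condition, with points by replicate number and a line at the mean of 3. The 19 enzymes include *Eno1* at its very low listed counts. The glycolytic shares overlap between conditions on this scale, the hypoxia response sums are lowest in replicate 1 of every condition, and the marker sums are 0.0949% or more in the wild-type groups and 0.0301% or less in the *Stag1*-/- and *Stag2*-/- groups.

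For the genes above the sequence just upstream of the start site is shown with every match to ACGTG, or CACGT on the other strand, in capitals. CACGTG holds both. Other forms of the HIF motif were not counted. The windows are the 250 bases before the RefSeq start (build GRCm38.p6), written 5′ to 3′ on the gene's strand. *P4ha1* (chr10:59323046-59323295, plus strand) and *P4ha2* (chr11:54100674-54100923, plus strand) fell in both knockouts and hold 1 match each, *Hkdc1* (chr10:62422458-62422707, minus strand) fell most and holds 0, and *Ldha* (chr7:46845554-46845803, plus strand), which was not called in any comparison, holds 5 counted over both strands. *Ldha* has another RefSeq start, whose window (chr7:46846832-46847081) holds 0.
P4ha1: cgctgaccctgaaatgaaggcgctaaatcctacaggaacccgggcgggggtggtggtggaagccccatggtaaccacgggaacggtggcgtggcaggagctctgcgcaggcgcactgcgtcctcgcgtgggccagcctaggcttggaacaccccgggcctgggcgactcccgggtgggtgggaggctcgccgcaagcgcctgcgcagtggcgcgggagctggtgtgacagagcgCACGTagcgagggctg
P4ha2: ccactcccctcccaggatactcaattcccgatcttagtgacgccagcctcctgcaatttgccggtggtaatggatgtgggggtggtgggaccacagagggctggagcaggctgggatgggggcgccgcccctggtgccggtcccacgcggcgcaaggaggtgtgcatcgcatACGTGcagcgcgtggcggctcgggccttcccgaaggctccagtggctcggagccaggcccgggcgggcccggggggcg
Hkdc1: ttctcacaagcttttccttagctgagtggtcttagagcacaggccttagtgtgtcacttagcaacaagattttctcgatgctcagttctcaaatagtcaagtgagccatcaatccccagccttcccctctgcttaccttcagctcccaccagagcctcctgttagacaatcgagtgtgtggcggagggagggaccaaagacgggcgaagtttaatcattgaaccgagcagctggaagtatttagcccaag
Ldha: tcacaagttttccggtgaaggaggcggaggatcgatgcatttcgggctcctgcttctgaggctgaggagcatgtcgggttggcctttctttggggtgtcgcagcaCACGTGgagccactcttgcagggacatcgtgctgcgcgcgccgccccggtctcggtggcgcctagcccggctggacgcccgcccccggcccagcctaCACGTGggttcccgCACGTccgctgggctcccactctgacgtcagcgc
Of 35 members with a promoter entry, 20 hold ACGTG or CACGT in at least 1 window. That was so for 18.5% of all genes and 24.9% of the tested genes with an entry. Genes can have several windows. Of 51 member windows 24 hold a match, beside 16.6% of all windows. *Slc2a3* and *Ndrg1* were not matched. A match describes these letters and does not show that a factor binds there.

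*Ndrg1*, a stress-response gene strongly induced by hypoxia, had 353, 505 and 787 normalised read counts in wild-type siGLO, 168, 296 and 209 in *Stag2*-/- siGLO and 138, 201 and 121 in *Stag2*-/- siStag1. Both *Stag2*-/- groups lay below wild type without overlap. It fell by 1.29 in *Stag2*-/- siGLO (SE 0.29, edgeR adjusted p = 0.00588) and by 1.84 in *Stag2*-/- siStag1 (SE 0.30, edgeR adjusted p = 0.000202). *Stag1*-/- cells had 289, 501 and 461, which overlapped wild type. The difference between the knockouts was 0.89 (SE 0.29, edgeR adjusted p = 0.0448), a call lost in 4 of 6 fits that left out a library (*Stag1*-/- replicate 2 or 3, *Stag2*-/- replicate 1 or 3, highest adjusted p 0.162).

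*Ero1l*, the oxidase that supplies disulfide bonds in the endoplasmic reticulum, had 1914, 2368 and 2932 normalised read counts in wild-type siGLO and 1079, 1510 and 1375 in *Stag2*-/- siGLO, without overlap. It fell by 0.86 (SE 0.22, edgeR adjusted p = 0.0117). In *Stag1*-/- cells it had 1345, 2581 and 2660, and the knockouts differed by 0.73 (SE 0.22, edgeR adjusted p = 0.0302, lost without *Stag1*-/- replicate 2 or 3, highest 0.127). *Egln3*, a HIF prolyl hydroxylase that is itself induced by HIF, had 1023, 1382 and 1930 in wild-type siGLO and 674, 1011 and 936.5 in *Stag2*-/- siGLO. It fell by 0.73 (SE 0.25, edgeR adjusted p = 0.0468), a call lost without wild-type siGLO replicate 3 or *Stag2*-/- replicate 1 (highest adjusted p 0.237).

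*Vegfa*, the vascular growth factor, had 852, 1056 and 1683 normalised read counts in wild-type siGLO, 713, 748 and 763 in *Stag2*-/- siGLO and 529, 477 and 471 in *Stag2*-/- siStag1. The 3 groups followed each other without overlap. *Vegfa* fell by 0.69 in *Stag2*-/- siGLO (SE 0.25, edgeR adjusted p = 0.0620) and by 1.28 in *Stag2*-/- siStag1 (SE 0.26, edgeR adjusted p = 0.00103). The first call was lost without wild-type siGLO replicate 3 or any 1 *Stag2*-/- library (highest adjusted p 0.343). Between the *Stag2*-/- groups the log2 fold change was -0.59 (edgeR adjusted p = 0.250, and 0.0434 with the replicate block). *Mxi1*, an antagonist of MYC, had 787, 878 and 940 in wild-type siGLO and 667, 659.5 and 681 in *Stag2*-/- siGLO, and fell by 0.38 (SE 0.11, edgeR adjusted p = 0.0208).

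*Adm*, the gene of the peptide hormone adrenomedullin, was the only member called higher in *Stag2*-/- siStag1 against wild-type siGLO without the block, where 8 of 36 had a log2 fold change above 0. It had 12.2, 53.9 and 53.2 normalised read counts in wild-type siGLO, 42.3, 52.8 and 69.7 in *Stag2*-/- siGLO and 102.5, 108 and 121 in *Stag2*-/- siStag1. It rose by 1.48 in the last of these against wild-type siGLO (SE 0.57, edgeR adjusted p = 0.0538), a call lost without wild-type siGLO replicate 1 or *Stag2*-/- siStag1 replicate 3 (highest adjusted p 0.174). *Ddit4*, an inhibitor of mTORC1 signalling, *Bnip3*, a mitophagy receptor, *Car9*, a carbonic anhydrase of the cell surface, and *Ankrd37* were not called against wild-type siGLO in either knockout. For *Bnip3* in *Stag2*-/- cells the log2 fold change was -0.40 (edgeR adjusted p = 0.271, and 0.0199 with the replicate block). Similarly, the block brought *Aldoc* (-0.64, edgeR adjusted p = 0.00390), *Eno2* (-0.95, edgeR adjusted p = 0.0215) and *Pfkfb3* (-0.40, edgeR adjusted p = 0.0697) past the threshold there, and 17 members were then lower, with 39.4% of all genes called.

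In *Stag2*-/- siStag1 cells against wild-type siGLO, the called members not yet given for that comparison were all lower. *Hkdc1* had 38.4, 38.5 and 31.4 normalised read counts and fell by 2.44 (SE 0.33, edgeR adjusted p = 4.05e-05). *P4ha1* fell by 1.04 and *P4ha2*, with 286, 412 and 381, by 1.26 (edgeR adjusted p = 0.000146 and 1.57e-05). *Hk1* had 762, 1199 and 1201 and fell by 1.06 (SE 0.21, edgeR adjusted p = 0.000984), and *Hk2* fell by 0.52 (SE 0.10, edgeR adjusted p = 0.00113). All 3 hexokinase genes were thus called lower in *Stag2*-/- siStag1. *Ero1l* had 999, 1410 and 1122 and fell by 1.03 (SE 0.22, edgeR adjusted p = 0.00183), and *Egln3* fell by 0.88 (SE 0.25, edgeR adjusted p = 0.0108) from overlapping groups. *Eno3* fell by 0.72 (SE 0.12, edgeR adjusted p = 0.000186). Smaller changes were those of *Mxi1* (-0.41), *Pfkm* (-0.38) and *Aldoa* (-0.33), the last of which was lost without wild-type siGLO replicate 3 (adjusted p 0.106).

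The counts near each member were used to see whether its chromosome region was shifted. For 36 members outside chromosome 8, the median log2 fold change of the tested genes within 5 Mb ran from -0.12 to 0.14 in *Stag1*-/- and from -0.12 to 0.16 in *Stag2*-/- cells. The same median ran from -0.15 to 0.38 in *Stag2*-/- siStag1, the highest being that near *Ndrg1*, which itself fell. *Ankrd37* lies on chromosome 8, where the median over 707 other tested genes was -0.19 in *Stag1*-/- and -0.20 in *Stag2*-/- cells. Its own log2 fold changes were -0.24 and -0.33, neither called.

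The knockouts were also compared with each other, a contrast whose fold changes do not use the wild-type libraries, although all 15 libraries set the spread. Of 36 members, 9 were called, 8 higher in *Stag1*-/- and 1 lower (*Hkdc1*), where 25.7% of all genes were called 12.7% higher and 12.9% lower in *Stag1*-/-. The groups did not overlap for 13 members, beside 31.0% of all genes. The log2 fold change was above 0 for 33 of the 36, with a median of 0.30, beside -0.03 over all genes. The 8 were *Slc2a1*, *Hk1*, *Hk2*, *Pfkp*, *Eno3*, *Pdk1*, *Ndrg1* and *Ero1l*. Besides the values above, the log2 difference was 0.72 for *Hk1* (SE 0.21, edgeR adjusted p = 0.0248) and 0.49 for *Eno3* (SE 0.11, edgeR adjusted p = 0.00716). It was 0.39 for *Pfkp* (SE 0.14, edgeR adjusted p = 0.0580) and 0.35 for *Hk2* (SE 0.10, edgeR adjusted p = 0.0292), and these calls were lost in 4 and 2 of 6 fits that left out a library. With the replicate block 21 members were called, 20 higher and 1 lower, with 37.3% of all genes called. The 12 gained, all higher in *Stag1*-/-, were *Ldhb* (block log2 difference 0.60, edgeR adjusted p = 5.11e-05), *Egln3* (0.58), *Pfkfb3* (0.66), *Aldoc* (0.61), *Slc2a3* (0.56), *Bnip3* (0.41), *Gpi1* (0.29), *Pfkl* (0.27), *P4ha1* (0.27), *Aldoa* (0.24), *Ddit4* (0.40) and *Mxi1* (0.23). Their adjusted p-values with the block were 0.086 or less, and without it 0.114 or more. The number fell to 5 without *Stag1*-/- replicate 2, where 2539 of 14722 tested genes were called. It was 12 when only the libraries of both knockouts were fitted, where 2406 of 13782 were called.

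Within *Stag2*-/- cells, *Eno3* and *Hk2* fell with siStag1 and no member rose, where 6.37% of all genes were called, 2.98% higher and 3.39% lower. The groups did not overlap for 6 members, beside 19.3% of all genes. With the replicate block 8 members were called, 3 higher (*Adm*, *Ldhb* and *Pfkl*) and 5 lower (*Eno3*, *Hk2*, *Slc2a3*, *Pfkp* and *Vegfa*), and 14.1% of all genes. The block log2 fold change was 1.09 for *Adm* (edgeR adjusted p = 0.0745), 0.42 for *Ldhb* (edgeR adjusted p = 0.00389) and -0.49 for *Slc2a3* (edgeR adjusted p = 0.0595). *Pfkl* had 8120, 9774 and 10383 normalised read counts in *Stag2*-/- siGLO and 10519, 12844 and 12122 in *Stag2*-/- siStag1, without overlap (log2 fold change 0.33, edgeR adjusted p = 0.249, and 0.0186 with the block). The difference between the siStag1 effects in *Stag2*-/- and wild-type cells was tested as an interaction. No member was called by edgeR or by DESeq2, 2 had an unadjusted p under 0.05 (*Eno3* at -0.48 and *Hk2* at -0.36), and 0.159% of all genes were called (0.0207% higher and 0.138% lower). With the replicate block 0 members and 0.951% of all genes were called.

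Many of these genes varied with the replicate number, mainly by lower values in the libraries numbered 1. A test of the replicate number, with the condition in the fit, called 23 of 36 members (63.9%) by edgeR, where 30.3% of all genes were called, and 23 by DESeq2. All 23 had their lowest mean in the replicates numbered 1. In all 5 conditions the library numbered 1 was the lowest of its 3 for 14 members (38.9%), which was so for 5.36% of all tested genes. The labels do not say whether a number marks a shared day or batch.

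Of the 12 hypoxia response genes 11 were called, the exception being *Mxi1*. *Ddit4* had 1691, 3393 and 5497 normalised read counts in wild-type siGLO replicates 1, 2 and 3. It had 2169, 4264 and 5295 in *Stag1*-/-, 2241, 4093 and 6613 in wild-type siStag1, 1844, 3436 and 3298 in *Stag2*-/- siGLO and 1832, 4117 and 3205 in *Stag2*-/- siStag1. The library numbered 1 was the lowest each time (edgeR adjusted p = 7.58e-05 for the number). On average *Ddit4* lay 0.74 below its condition's mean in replicates numbered 1, 0.24 above in those numbered 2 and 0.50 above in those numbered 3, on the log2 scale. *Adm* lay 0.96 below its condition's mean in replicates numbered 1 (edgeR adjusted p = 0.0132). *Bnip3* lay 0.38 below (edgeR adjusted p = 0.000747) and *Egln3* 0.37 below (edgeR adjusted p = 0.00125).

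Among metabolic members, *Ldhb* had the smallest adjusted p for the number (1.76e-05, edgeR) and was lowest in the library numbered 1 and highest in that numbered 3 in all 5 conditions. *Aldoc*, the brain aldolase, lay 0.53 below its condition's mean in replicates numbered 1 (edgeR adjusted p = 0.000414). *Pfkfb3*, which makes the phosphofructokinase activator fructose-2,6-bisphosphate, lay 0.48 below (edgeR adjusted p = 0.00140) and *Slc2a3* 0.43 below (edgeR adjusted p = 0.00260). *Gapdh*, *Pkm*, *Ldha*, *Pgam1*, *Aldoa*, *Hk2*, *Hkdc1*, *Pfkm*, *Pfkp*, *Eno3*, *Pdk1*, *Mxi1* and *Pfkfb4* were not called. The counts of the 12 hypoxia response genes summed to 0.0663%, 0.0906% and 0.129% of gene counts in wild-type siGLO and 0.0463%, 0.0678% and 0.0690% in *Stag2*-/- siGLO replicates 1, 2 and 3. The sum was lower in *Stag2*-/- siGLO than in wild-type siGLO in each of the 3 same-numbered pairs, with group means of 0.0610% and 0.0953%. The sum in *Stag1*-/- was 0.0550%, 0.0900% and 0.104%, of which the second lay close to its wild-type siGLO pair. Summed as normalised read counts, that pair turned to 15863 in *Stag1*-/- against 15773 in wild-type siGLO, so no direction is read for *Stag1*-/-.

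**Figure D5:**
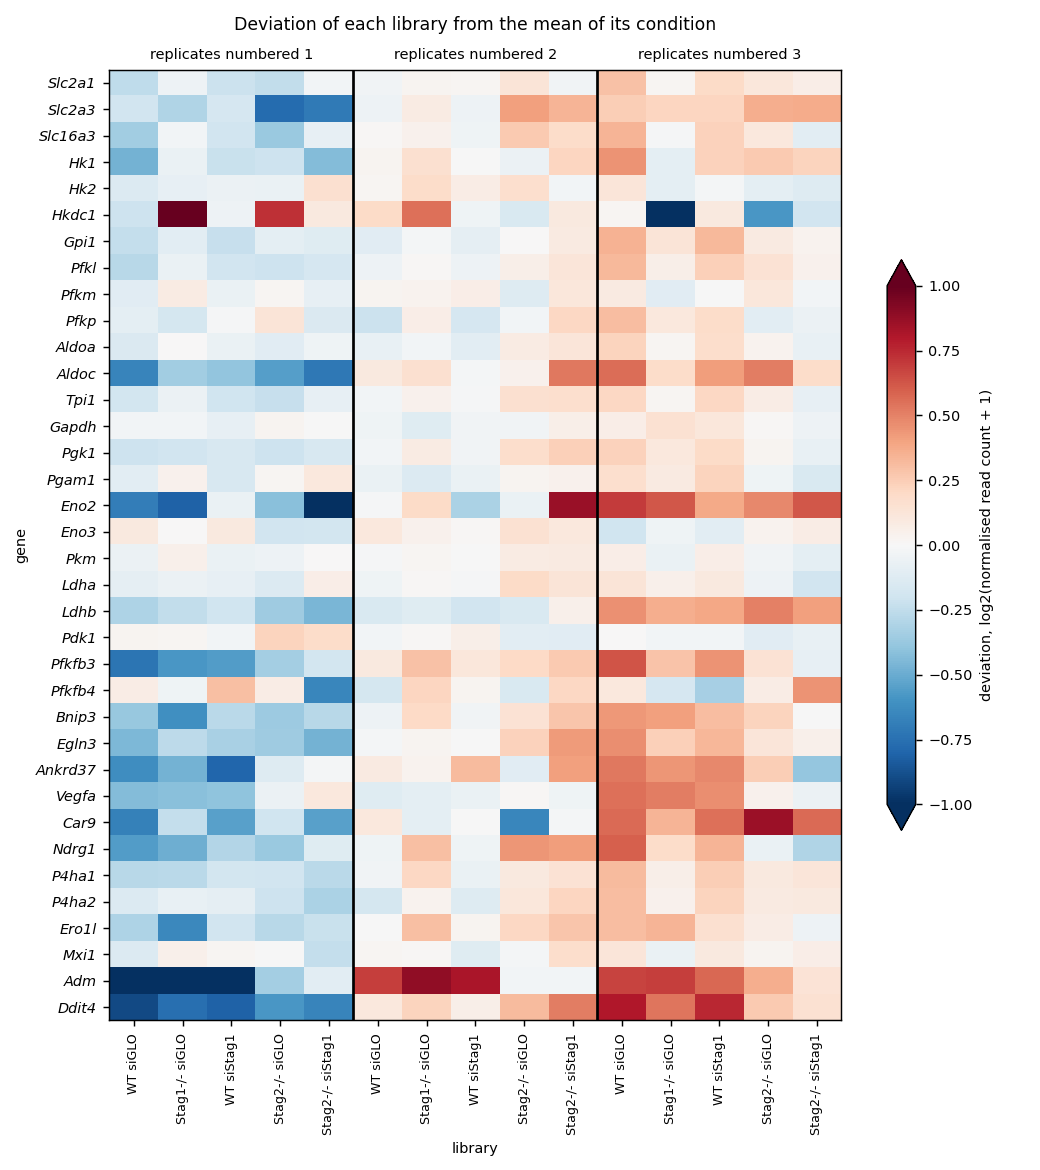
Deviation of each library from the mean of its condition (colour, log2 of the normalised read count + 1, capped at ±1) for the 36 tested genes (rows) in 15 libraries (columns), grouped by replicate number. The 5 libraries numbered 1 are below their condition's mean for *Ddit4*, *Aldoc*, *Pfkfb3*, *Bnip3* and *Egln3*, while *Gapdh*, *Pkm* and *Pdk1* stay close to it.

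Other genes of the same pathways were read from fixed lists. Of 9 HIF factors and regulators, *Arnt2*, a partner of HIF alpha subunits, rose by 1.21 (SE 0.26, edgeR adjusted p = 0.00422) and *Egln2*, another HIF prolyl hydroxylase, by 0.32 in *Stag2*-/- cells, and none was called in *Stag1*-/- cells. In *Stag2*-/- siStag1, 4 rose and 1 fell, with *Arnt2* up by 2.03 and *Egln1* down (log2 fold change -0.59), where 43.9% of all genes were called, 22.6% higher and 21.3% lower. Of 16 other hypoxia-inducible genes, 5 were called in *Stag1*-/- (2 higher, 3 lower) and 6 in *Stag2*-/- cells (1 higher, 5 lower), to be read, like the counts of the other lists here, against 20.0% and 28.3% of all genes called. Among those called, the largest changes in both were lower *Plod2* (-0.90 and -1.04) and *Loxl2* (-0.80 and -0.78), which modify lysines of collagen, and *Ak4* (-0.62 and -0.89), a mitochondrial adenylate kinase. *Plod1*, another collagen lysyl hydroxylase, rose by 0.42 in *Stag1*-/- and had a log2 fold change of -0.67 in *Stag2*-/- cells, and it was higher in *Stag1*-/- than in *Stag2*-/- by 1.09 (edgeR adjusted p = 3.01e-05). By replicate number 9 of these 16 were called.

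In the pentose phosphate pathway, which draws glucose-6-phosphate off glycolysis, *G6pdx* rose by 0.52 (SE 0.16, edgeR adjusted p = 0.0368) and *Pgd* by 0.31 in *Stag1*-/- cells. *Rpe* fell by 0.36 in *Stag1*-/- and by 0.48 in *Stag2*-/- cells, and these were the only calls among 7 genes in those comparisons. Of 12 genes for entry of pyruvate into mitochondria, 5 were called in *Stag2*-/- cells, all lower, led by *Pdk4* (log2 fold change -0.96, SE 0.23, edgeR adjusted p = 0.00759), another pyruvate dehydrogenase kinase. In *Stag1*-/- cells 4 were called, 1 higher (*Pdha1*, 0.26) and 3 lower (*Mpc1*, -0.93, *Slc16a1*, -0.29, and *Dld*, -0.22). Of 10 tested genes of gluconeogenesis and glycogen, 2 fell in *Stag1*-/- and 5 in *Stag2*-/- cells. *Fbp2*, the muscle fructose bisphosphatase, fell with log2 fold changes of -2.80 and -2.52 and the phosphoglucomutase gene *Pgm1* with -0.43 and -0.65 in these clones. *Gys1*, muscle glycogen synthase, was the only gene of these lists called with siStag1 in wild-type cells (log2 fold change -0.40, SE 0.08, edgeR adjusted p = 0.0893), and it also fell in *Stag2*-/- siGLO by 0.36.

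Other cell-type markers also differed between these libraries. Of 10 pluripotency markers, 1 was called in *Stag1*-/- cells (lower), 5 in *Stag2*-/- siGLO (1 higher, 4 lower) and 8 in *Stag2*-/- siStag1 (1 higher, 7 lower), where 20.0%, 28.3% and 43.9% of all genes were called. Their summed counts were 0.663% to 0.683% of gene counts in wild-type siGLO, 0.549% to 0.644% in *Stag1*-/-, 0.5355% to 0.619% in *Stag2*-/- siGLO and 0.4165% to 0.504% in *Stag2*-/- siStag1. Of 6 neural markers, 3 were called higher in *Stag2*-/- siGLO (*Pax6*, *Nes* and *Tubb3*) and 2 in *Stag2*-/- siStag1 (*Pax6* and *Nes*), where *Sox1* and *Neurod1* had log2 fold changes of -0.79 and -0.26 and were not called. In *Stag1*-/- cells *Map2* was called higher (0.71) and *Sox1* lower (-2.90). The part of these shifts in the members' values was not tested.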

How the data were processed

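The authors sequenced polyA RNA as 150-base paired-end reads, aligned them with STAR to mm10, and deposited raw read counts per gene for each of 15 libraries. The counting tool, its annotation and its strand setting are not given in the sources used here. The 4 lines of unassigned reads (19.8% to 23.4% of all counts) were left out. Counts were normalised by TMM and fitted with edgeR 4.0.16 (R 4.3.3), quasi-likelihood, with 1 coefficient per condition over all 15 libraries. Genes were kept by filterByExpr (minimum count 10, minimum total 15), which left 14508, and p-values are two-sided and Benjamini-Hochberg adjusted over all of them, called under 0.1. Normalised read counts are scaled to a common depth of 17409359. The fit was tested on simulated data.

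Same-numbered replicates deviated together in 5 comparisons (every one of 3 correlations of deviations from the group means above 0.1, lowest 0.131), so values with the replicate number as a block are given for members whose call they change. That was not so for *Stag2*-/- siStag1 against wild-type siGLO (lowest 0.0468) or the interaction. Alternatives were DESeq2 1.42.0, DESeq2 size factors, library size alone, other filters, a threshold of 0.05, only the libraries compared, and each library left out in turn. Members called in a comparison are named, and others where their level or block value is described. Some of the latter were chosen after their values were seen. The members and lists were chosen with earlier results of these data known. Positions come from GENCODE M21 (mm10) and promoters from RefSeq (GRCm38.p6).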

Additional observations from a re-analysis of the deposited data

How the results depend on the processing

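Of 47 calls of a member in a comparison between conditions, DESeq2 kept 47, DESeq2 size factors 47, library size alone 46, a threshold of 0.05 41 and fits of only the libraries compared 44. With at least 10 counts in every library 43 of 43 that could be tested were kept. Leaving out a library kept 243 of 282, and no called member changed sign. With the replicate block all 47 were kept and 36 more made. The block moved the number of members called from 7 to 13 in *Stag1*-/- against wild-type siGLO, from 0 to 1 in wild-type siStag1, from 9 to 21 between the knockouts and from 2 to 8 with siStag1 in *Stag2*-/- cells. It gave 23 in place of 17 in *Stag2*-/- siStag1 against wild-type siGLO and 0 in the interaction, where the numbers did not pair the samples. With only the libraries compared, 1 member was called in wild-type siStag1 (126 of 13869 genes) and 1 with siStag1 in *Stag2*-/- cells (224 of 13916). A threshold of 0.05 also left 1 in the latter (548 of 14508). Fits of only the libraries compared called 9 members in *Stag1*-/- against wild-type siGLO (2832 of 13841 genes) and 12 between the knockouts (2406 of 13782). The cause was not tested. Without single libraries the number ran from 6 to 9 in *Stag1*-/-, 9 to 15 in *Stag2*-/-, 16 to 20 in *Stag2*-/- siStag1 against wild-type siGLO, 5 to 12 between the knockouts, 1 to 3 with siStag1 in *Stag2*-/- cells and 21 to 24 for the replicate number, and was 0 throughout in wild-type siStag1 and the interaction. With siStag1 in *Stag2*-/- cells it was 1 without *Stag2*-/- siGLO replicate 2, *Stag2*-/- siStag1 replicate 2 or *Stag2*-/- siStag1 replicate 3. The number of all genes called moved too, running from 2524 to 3985 in *Stag2*-/- against wild-type siGLO.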
